A study of Mus musculus with 8 samples.

Results

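The insulin-like growth factor (IGF) system of injured mouse sciatic nerve is represented here by 9 genes, the ligands Igf1 and Igf2, the receptor Igf1r and the binding proteins Igfbp2, Igfbp3, Igfbp4, Igfbp5, Igfbp6 and Igfbp7. They were selected by name, as the probe sets that the array's platform annotation assigns to these genes, out of 12094 genes tested and 18194 annotated. The family was chosen with results of these same arrays known, and which values weighed in that choice is not recorded. The adjusted p-values below therefore place each gene within the fit over all genes and are a description of the members, not independent support. The members have 26 probe sets, of which 24 passed the signal filter (above the median of the array on at least 2 arrays), and all 9 genes had at least 1 that passed.

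The study set nerves of control mice beside nerves of mice with altered c-Jun, a transcription factor that injury induces in Schwann cells. In adult mice 1 sciatic nerve was cut at the sciatic notch, and at day 7 a 10 mm piece of the distal stump was collected, and so was the uninjured nerve of the opposite side. The 4 groups were control (labelled WT) uncut, control cut, c-Jun mutant (labelled KO) uncut and c-Jun mutant cut, with 2 arrays in each, and every array held a pool from 4 or 6 mice. The design text calls the pools of a group independent samples, and it does not say whether cut and uncut pools came from the same mice. The labels do not describe the mutant allele or the cells in which it acts. All mice had a nerve cut, so the uncut nerves are the opposite side of injured animals.

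Values are log2 expression values of single probe sets, and each gene was read from its brightest probe set that passed the filter. Array medians lay between 6.59 and 6.65, and replicate arrays correlated across genes with r = 0.984 to 0.989. Arrays of the same injury state but the other genotype correlated with r = 0.977 to 0.987, a range that overlaps that of the replicates. Jun itself gave 9.58 and 9.70 in control uncut, 11.88 and 11.96 in control cut, 9.62 and 9.59 in mutant uncut and 10.39 and 10.80 in mutant cut nerve, so the cut groups differed in the labelled direction (-1.33, limma adjusted p = 0.00866). No source used here says if that probe set falls in the part of Jun that the mutation alters. The labels call the tissue Schwann cells, and schwannoma in a description, but the segment was a mixture: the 10 macrophage markers (9 of 10 called higher after the cut in control, 8 of 10 in mutant), the 8 fibroblast markers and the 7 skeletal muscle markers were all measured beside 4 of 5 Schwann lineage markers. Milk protein RNA stood apart on some arrays, with Csn2 at 3.50 and 4.14 in control uncut, 11.47 and 7.03 in control cut, 13.01 and 10.33 in mutant uncut and 3.69 and 9.15 in mutant cut nerve.

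IGF-I and IGF-II are small secreted growth factors that signal through the IGF type 1 receptor, a tyrosine kinase feeding the PI3 kinase and Akt pathway. In fluid they are held by the IGF binding proteins, which prolong their life, deliver or withhold them, and in part act without them, and proteases release the growth factor by cutting the binding protein. In peripheral nerve, IGFs are known as survival and growth factors for Schwann cells and axons, and Schwann cells, fibroblasts and macrophages can make them.

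The promoters of Igf1, Igfbp2, Igfbp3 and Igfbp5 are printed because the control and mutant cut arrays of these 4 members did not overlap. Of all genes 34.6% did not overlap either, so the choice is no result about the members. A further reason is that c-Jun is a subunit of the dimer AP-1. The AP-1 motif was searched here as TGANTCA, where N is any base. Each run is 300 bases, from 250 before to 50 after a start site, 5′ to 3′ on the gene's strand, from RefSeq annotation of GRCm38.p6. All 9 members were matched, with 13 windows. Capitals mark TGANTCA (searched on both strands) or, in the first Igfbp2 window, the GC box GGGCGG. The Igfbp3 and Igfbp5 windows hold neither.
Igf1, chr10:87860861-87861160, plus strand: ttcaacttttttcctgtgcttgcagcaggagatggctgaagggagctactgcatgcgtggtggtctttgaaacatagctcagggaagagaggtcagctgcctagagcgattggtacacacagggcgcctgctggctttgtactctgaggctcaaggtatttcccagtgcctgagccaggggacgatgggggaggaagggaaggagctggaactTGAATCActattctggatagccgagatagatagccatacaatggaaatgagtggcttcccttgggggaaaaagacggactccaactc
Igfbp2 first start, chr1:72824230-72824529, plus strand: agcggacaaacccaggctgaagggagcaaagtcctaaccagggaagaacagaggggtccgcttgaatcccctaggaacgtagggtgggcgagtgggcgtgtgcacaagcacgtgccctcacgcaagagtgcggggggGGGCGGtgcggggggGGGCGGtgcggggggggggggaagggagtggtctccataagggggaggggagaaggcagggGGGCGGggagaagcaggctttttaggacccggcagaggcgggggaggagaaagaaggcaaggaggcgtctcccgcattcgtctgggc
Igfbp2 second start, chr1:72825137-72825436, plus strand: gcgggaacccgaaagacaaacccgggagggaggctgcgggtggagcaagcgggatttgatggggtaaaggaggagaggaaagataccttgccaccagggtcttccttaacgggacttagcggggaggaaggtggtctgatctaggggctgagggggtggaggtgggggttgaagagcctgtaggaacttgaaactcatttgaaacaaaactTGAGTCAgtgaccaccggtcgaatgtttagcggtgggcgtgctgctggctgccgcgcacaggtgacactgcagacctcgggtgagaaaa
Igfbp3, chr11:7213874-7214173, minus strand: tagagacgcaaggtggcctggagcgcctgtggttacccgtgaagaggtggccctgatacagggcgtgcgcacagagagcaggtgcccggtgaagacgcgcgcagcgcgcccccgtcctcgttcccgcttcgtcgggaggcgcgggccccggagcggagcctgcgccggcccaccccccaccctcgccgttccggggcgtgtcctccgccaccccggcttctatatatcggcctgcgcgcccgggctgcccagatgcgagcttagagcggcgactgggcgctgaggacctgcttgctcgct
Igfbp5, chr1:72874816-72875115, minus strand: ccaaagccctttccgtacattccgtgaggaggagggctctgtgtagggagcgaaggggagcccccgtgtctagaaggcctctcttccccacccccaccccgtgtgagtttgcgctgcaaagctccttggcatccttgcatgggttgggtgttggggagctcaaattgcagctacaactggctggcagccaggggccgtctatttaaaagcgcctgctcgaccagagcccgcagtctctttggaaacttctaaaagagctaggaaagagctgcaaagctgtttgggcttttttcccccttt

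TGANTCA stood in 2 of the 13 member windows, as TGAATCA beginning 37 bases before the Igf1 start and as TGAGTCA beginning 39 bases before the second Igfbp2 start. Over all windows of this length 2565 of 32851 held it (7.81%). The related motif TGACGTCA, also searched on both strands, was in 0 of the 13 windows and in 1.79% of all windows. GGGCGG was in 5 of the 13 (35.7% of all windows), 3 times in the first Igfbp2 window. A match is a run of letters and not a bound site, and no match says only that the letters are not in this window. In the same annotation Igfbp2 and Igfbp5 are neighbouring protein-coding genes that lie on opposite strands, and Igfbp3 neighbours Igfbp1.

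In control mice, Igf1, Igf2, Igfbp2, Igfbp3 and Igfbp5 rose after the cut, Igf1r and Igfbp6 fell, and Igfbp4 and Igfbp7 did not pass the test (limma, adjusted over all genes by Benjamini-Hochberg, threshold 0.05). So 7 of 9 members were called, beside 40.3% of all genes tested, 5 of them higher (22.8% of all genes) and 2 lower (17.5%). In the mutant 4 of 9 were called, beside 36.0% of all genes: Igf1 and Igfbp3 rose (18.1% of genes were called higher) and Igf1r and Igfbp6 fell (17.8% lower). Between the genotypes in cut nerve 1 of 9 was called, beside 1.09% of all genes (0.711% lower): Igfbp2 was lower in the mutant. Igfbp2 passed the filter only through its control cut arrays, so a difference was built into its being tested. In uncut nerve the count was 0 of 9, beside 0% of all genes, and for the interaction, which asks whether the change after the cut differs between genotypes, 0 of 9, beside 0.165%. At an unadjusted p under 0.05 the counts were 4 of 9 in cut nerve, 0 of 9 in uncut nerve and 4 of 9 for the interaction, beside 8.61%, 2.66% and 6.04% of all genes. The median log2 difference over the members was 0.77, 0.06, -0.31, 0.01 and -0.29 in these 5 comparisons in turn, beside 0.05, 0.00, -0.01, 0.03 and -0.05 over all genes.

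**Figure D1:**
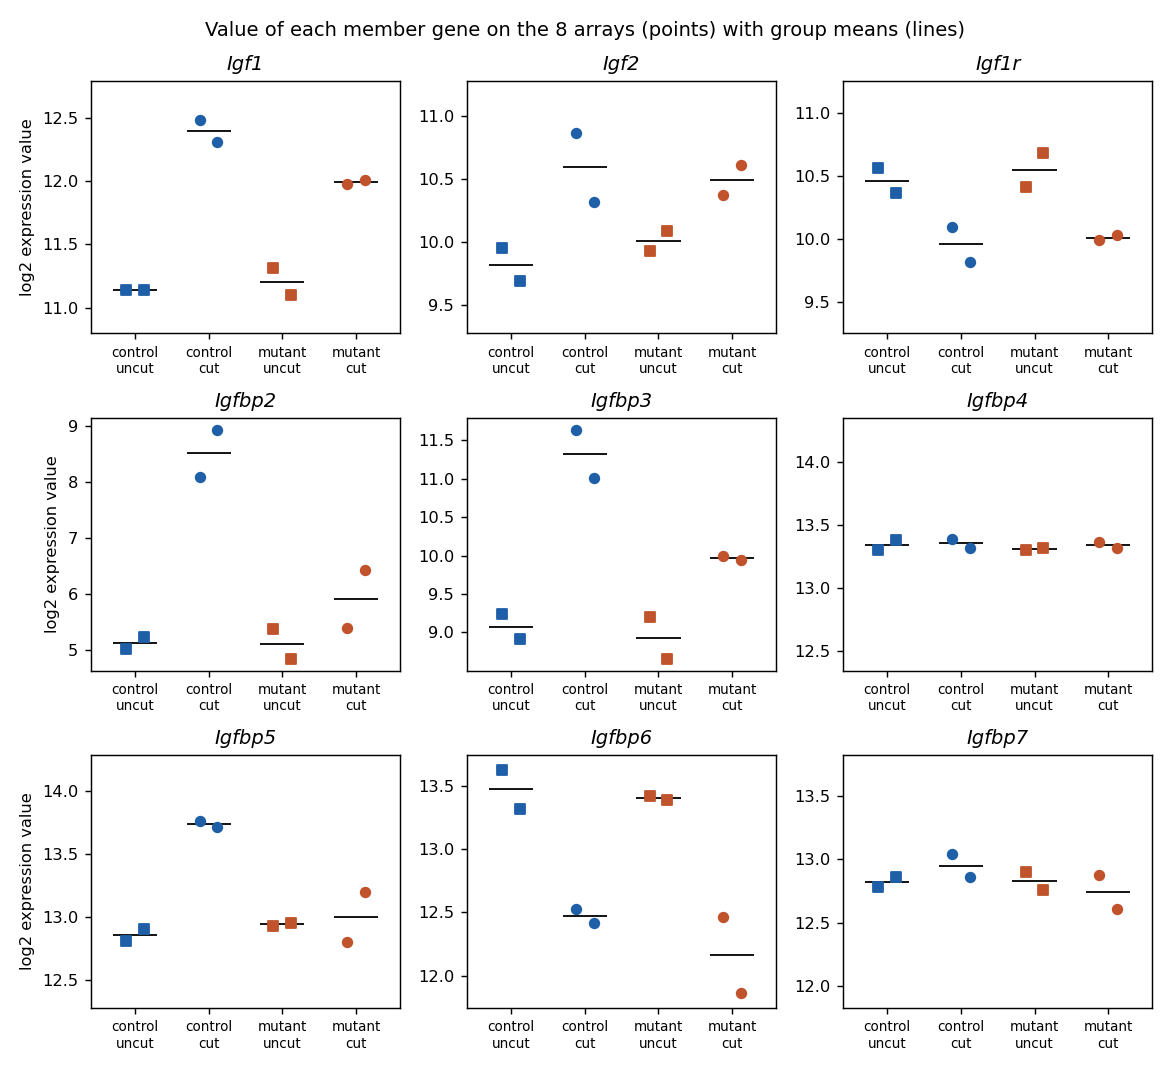
Log2 expression value (vertical axis, whose range differs between panels) of each member on the 8 arrays, by group (2 arrays each, points; group mean, line). Igfbp2, Igfbp3, Igfbp5 and Igf1 stand highest in control cut nerve, whereas Igfbp4 lies between 13.30 and 13.39 on every array.

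Igf1, the ligand made in many tissues, read 11.14 and 11.14 in control uncut, 12.49 and 12.31 in control cut, 11.31 and 11.10 in mutant uncut and 11.98 and 12.01 in mutant cut nerve. Both cut groups lay above both uncut groups, and the control cut arrays lay above the mutant cut arrays without overlap. It rose by 1.26 (SE 0.11) in control nerve, a 2.39-fold change (limma adjusted p = 1.3e-04), and by 0.79 in the mutant (adjusted p = 0.00146). In cut nerve the mutant was lower than control (-0.40, 95% interval -0.66 to -0.14), which did not pass over all genes (limma adjusted p = 0.244). All 4 Igf1 probe sets were higher after the cut in both genotypes, by 0.37 to 1.26 in control (3 called) and by 0.12 to 0.79 in mutant nerve (2 called). In cut nerve they were -0.40 to -0.23 in the mutant against control, with 0 called.

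Macrophages are a known source of Igf1, and the macrophage markers moved with it. The sum of the 10 log2 values was 91.29 to 93.19 in control uncut, 107.55 to 108.35 in control cut, 90.80 to 94.38 in mutant uncut and 105.34 to 108.02 in mutant cut nerve, and no marker was at 0. Of the 10, 0 were called between the genotypes in cut nerve (1 at an unadjusted p under 0.05). Other lists rose after the cut too. Of the 7 skeletal muscle markers 6 rose in control and 7 in the mutant, with sums of 80.91 to 87.59 in control uncut, 93.63 to 95.33 in control cut, 82.24 to 87.70 in mutant uncut and 94.42 to 98.39 in mutant cut nerve. All 5 measured markers of dividing cells rose in both genotypes, with sums of 29.56 to 31.02, 48.20 to 49.70, 30.33 to 31.71 and 50.68 to 51.39 in the same order, and 3 of 8 fibroblast markers rose and 1 fell in each genotype. The part of any of these lists in the change of Igf1 was not tested. In a bulk segment, fewer cells of a type and less RNA per cell cannot be told apart.

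Igf2, the ligand that is imprinted and abundant in the fetus, read 9.95 and 9.69 in control uncut and 10.86 and 10.32 in control cut nerve. It read 9.93 and 10.09 in mutant uncut and 10.37 and 10.61 in mutant cut nerve. Cut arrays lay above uncut arrays in both genotypes, and the genotypes overlapped within each injury state. Igf2 rose by 0.77 in control nerve (SE 0.19, limma adjusted p = 0.0150), but without control cut replicate 1 the change was 0.50 (limma adjusted p = 0.0662), and without control uncut replicate 2 the adjusted p was 0.0898. In the mutant the change was 0.48 (95% interval 0.04 to 0.93), which did not pass (limma adjusted p = 0.0877, but 0.0363 with control cut replicate 1 or 2 left out), and the difference between genotypes in cut nerve was -0.10. A second Igf2 probe set lay under the filter, between 4.59 and 4.92 on all arrays.

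Igf1r, the receptor of both ligands, moved the other way from Igf1. It read 10.56 and 10.36 in control uncut, 10.09 and 9.82 in control cut, 10.41 and 10.68 in mutant uncut and 9.99 and 10.03 in mutant cut nerve. Every cut array was below every uncut array, and the genotypes overlapped in both states. Igf1r fell by 0.51 in control (limma adjusted p = 0.0221) and by 0.54 in the mutant (adjusted p = 0.0191), 1.42-fold and 1.45-fold lower. Control cut and mutant cut nerve differed by 0.05 (95% interval -0.27 to 0.38). The 4 probe sets that passed the filter were lower in cut nerve of both genotypes, with 3 called in control and 1 in mutant, and the remaining 1 lay under the filter. The call in control did not survive leaving out control cut replicate 2 or control uncut replicate 1 (limma adjusted p = 0.121 and 0.123). The call in the mutant was lost without mutant cut replicate 1 (0.0725) or 2 (0.0698) or mutant uncut replicate 2 (0.111).

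**Figure D2:**
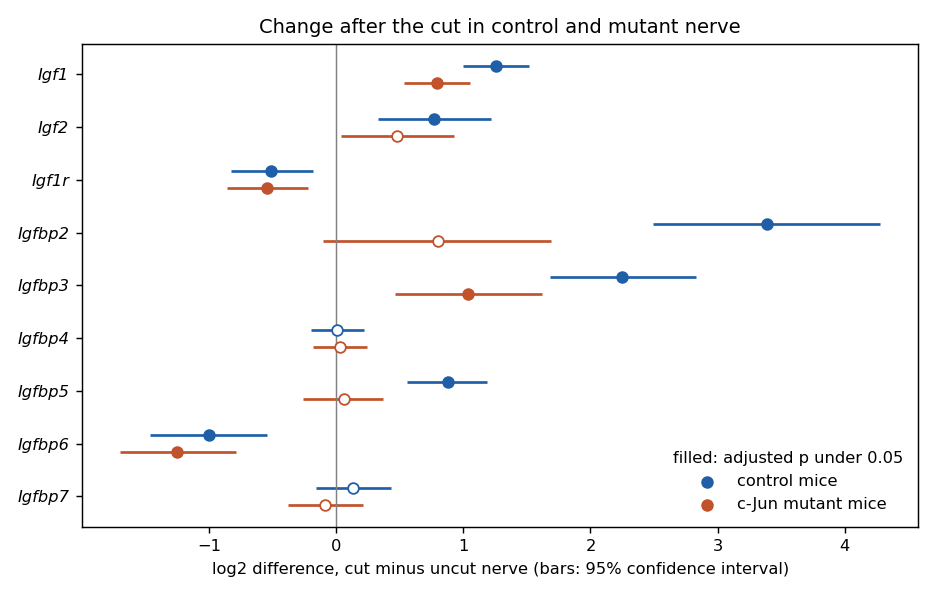
Log2 difference between cut and uncut nerve (horizontal axis) for each member in control and in c-Jun mutant mice, with 95% confidence intervals (limma, 2 arrays a group); filled points passed an adjusted p under 0.05. Igfbp2 stands at 3.39 in control and 0.80 in the mutant, Igfbp5 at 0.88 and 0.06, and Igf1r and Igfbp6 lie below 0 in both.

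Igfbp2, a binding protein that carries an integrin-binding motif and is made in the developing nervous system, changed most among the members. It read 5.02 and 5.23 in control uncut, 8.09 and 8.93 in control cut, 5.38 and 4.84 in mutant uncut and 5.39 and 6.43 in mutant cut nerve. The 2 control cut arrays were high, and the other 6 lay at 6.43 or lower, with mutant cut replicate 2 the highest of them. In control nerve Igfbp2 rose by 3.39 (SE 0.38, 10.5-fold, limma adjusted p = 4.4e-04), the change of rank 94 by size among 12094 genes. In the mutant the change was 0.80 (95% interval -0.10 to 1.69, limma adjusted p = 0.147). It depended on single arrays. Leaving out mutant cut replicate 1 gave 1.32 (limma adjusted p = 0.0336), leaving out mutant cut replicate 2 gave 0.27 (0.633), and leaving out mutant uncut replicate 2 gave 0.52 (0.472).

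In cut nerve Igfbp2 was lower in the mutant than in control (-2.60, SE 0.38, 95% interval -3.49 to -1.70, 6.06-fold lower, limma adjusted p = 0.0269), rank 4 by size. In uncut nerve the difference was -0.01. The interaction was -2.59, which did not pass over all genes (limma adjusted p = 0.200). It was -3.53 in a fit, chosen after seeing the data, without the cut array of each genotype that held more milk protein RNA. That fit kept 1 array in each cut group, at 8.93 in control and 5.39 in the mutant. The arrays left out were nearer each other (8.09 and 6.43), so that fit cannot decide if the changes differ. Igfbp2 has 1 probe set, and it passed the filter only through the control cut arrays, so a difference was built into its passing. Its uncut values lie near the 25th percentile of the arrays (4.95 to 5.01), and how far they stand above background was not tested. The call in cut nerve was kept in 3 of the 8 limma fits that left out an array. Dropping either control cut array raised the adjusted p to 0.0710 (replicate 1) or 0.134 (replicate 2), dropping either control uncut array to 0.0622, and dropping mutant cut replicate 1 to 0.113.

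Igfbp3, the chief carrier of IGFs in blood and a matrix-bound protein in tissue, read 9.24 and 8.91 in control uncut and 11.64 and 11.01 in control cut nerve. It read 9.20 and 8.65 in mutant uncut and 9.99 and 9.94 in mutant cut nerve. The mutant cut arrays lay between the uncut arrays and the control cut arrays, with no overlap on either side. Igfbp3 rose by 2.25 in control (4.77-fold, limma adjusted p = 3.7e-04) and by 1.04 in the mutant (2.06-fold, adjusted p = 0.0141). The call in the mutant was lost without mutant cut replicate 1 (limma adjusted p = 0.0541) or 2 (0.0554) or mutant uncut replicate 2 (0.0828). In cut nerve the mutant was lower (-1.36, 95% interval -1.94 to -0.79), which missed the threshold over all genes (limma adjusted p = 0.0573). The interaction was -1.21 (limma adjusted p = 0.427).

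A second Igfbp3 probe set gave the same picture, at 8.69 and 8.41, 11.02 and 10.51, 8.71 and 8.40, and 9.31 and 9.31 in the groups in the same order. It stood 2.21 higher after the cut in control and 0.76 higher in the mutant. In cut nerve it was -1.45 in the mutant against control, which passed when the test ran over all probe sets (limma adjusted p = 0.0258).

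Igfbp5, a binding protein that adheres to matrix, read 12.81 and 12.90 in control uncut, 13.76 and 13.71 in control cut, 12.93 and 12.95 in mutant uncut and 12.80 and 13.20 in mutant cut nerve. The control cut arrays stood above all others, and the mutant cut arrays spanned the mutant uncut ones. It rose by 0.88 in control (1.84-fold, limma adjusted p = 0.00178), and the change in the mutant was 0.06 (95% interval -0.26 to 0.37). In cut nerve the mutant was -0.74 against control (95% interval -1.05 to -0.42, limma adjusted p = 0.0592), and the interaction was -0.82 (adjusted p = 0.243). With 1 array left out, the difference in cut nerve ran from -0.94 to -0.54 and passed in 1 of 8 fits, without mutant cut replicate 2 (limma adjusted p 0.0289 to 0.281). A second probe set rose by 1.36 in control and differed by 0.09 in the mutant, and in cut nerve it was -1.05 (limma adjusted p = 0.175 over probe sets).

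Beside the differences of Igfbp2, Igfbp3 and Igfbp5 between the cut groups, other cell types' markers were read. The sum of the 4 measured Schwann lineage markers was 43.21 to 43.33 in control cut and 42.38 to 42.94 in mutant cut nerve, and that of the 8 fibroblast markers 102.95 to 102.97 and 101.50 to 102.73. In both lists the groups did not overlap, 0 markers were called between genotypes, and the median differences were -0.24 and -0.07. Taken singly, 34.6% of all genes did not overlap between the cut groups, so lists that stand apart are no result about cell content. A further 3 lists stood apart in the other direction, higher in the mutant. The sum of the 6 measured markers of myelinating Schwann cells was 53.06 to 53.09 in control cut and 53.38 to 55.52 in mutant cut nerve. Of these 6, 1 was called higher, beside 0.380% of all genes. The sum of the 5 markers of dividing cells was 48.20 to 49.70 and 50.68 to 51.39 (0 called, median difference 0.37), and that of the 6 pericyte and smooth muscle markers 62.68 to 63.59 and 63.95 to 64.58 (0 called, 0.13). The remaining lists overlapped between the cut groups. The part of all these markers in the results was not tested.

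**Figure D3:**
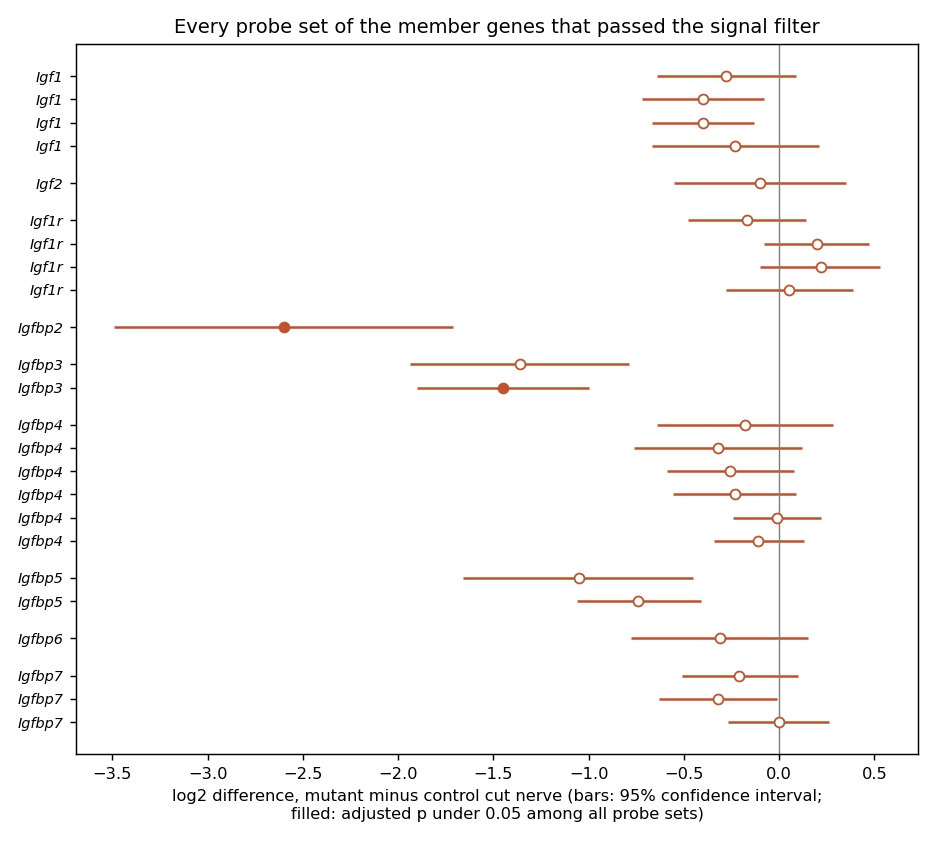
Log2 difference between mutant and control cut nerve (horizontal axis) for each of the 24 probe sets of the members that passed the filter, with 95% confidence intervals (limma, 2 arrays a group); filled points passed an adjusted p under 0.05 among all probe sets. Igfbp2 (-2.60) and 1 of the 2 Igfbp3 probe sets (-1.45) are filled, and the 4 Igf1 and 6 Igfbp4 points lie nearer 0.

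Igfbp6, which binds IGF-II with preference, moved downward. It read 13.63 and 13.32 in control uncut, 12.53 and 12.42 in control cut, 13.42 and 13.39 in mutant uncut and 12.46 and 11.86 in mutant cut nerve. All cut arrays lay below all uncut arrays, and the genotypes overlapped. It was 2.00-fold lower after the cut in control (95% interval of the log2 difference -1.46 to -0.54, limma adjusted p = 0.00560) and 2.37-fold lower in the mutant (-1.70 to -0.79, adjusted p = 0.00245), with -0.31 between genotypes in cut nerve (95% interval -0.77 to 0.14). The 4 perineurial markers fell in both genotypes as well. Their sum was 43.53 to 44.67 in control uncut, 38.79 to 39.24 in control cut, 43.93 to 44.30 in mutant uncut and 38.59 to 39.71 in mutant cut nerve. All 6 measured markers of myelinating Schwann cells also fell in each genotype. So did 3 of 4 adipocyte and 3 of 6 pericyte and smooth muscle markers. Of 8 endothelial markers 2 fell in control and 4 in the mutant. Among all genes 17.5% and 17.8% were called lower. Macrophage, skeletal muscle and dividing cell lists rose, as given above. The part of any of these lists in the fall of Igfbp6 was not tested.

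Igfbp4, an inhibitor of IGFs that the protease Pappa cuts, stayed between 13.30 and 13.39 on all 8 arrays. Its changes after the cut were 0.01 in control (95% interval -0.20 to 0.22) and 0.03 in the mutant (-0.18 to 0.24). These values and intervals hold for its brightest probe set only. All 6 Igfbp4 probe sets were higher after the cut in control, by 0.01 to 0.46. In the mutant they ran from -0.11 to 0.06, and between genotypes in cut nerve from -0.32 to -0.01. Of the 6, 0 were called in any comparison. Igfbp7, a low-affinity relative found in vessel walls, read 12.78 and 12.86 in control uncut, 13.04 and 12.86 in control cut, 12.90 and 12.76 in mutant uncut and 12.88 and 12.61 in mutant cut nerve. The groups lay within a narrow span, and control cut replicate 1 was the highest array. Its changes after the cut were 0.13 in control (95% interval -0.16 to 0.43) and -0.09 in the mutant, and neither passed. Of its 3 probe sets 1, a dimmer one, rose in control nerve, from 7.33 and 7.32 to 8.01 and 7.83 (0.59, limma adjusted p = 0.0109), and differed by 0.02 in the mutant.

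In cut nerve, 4 of the 9 members had control and mutant arrays that did not overlap (Igf1, Igfbp2, Igfbp3 and Igfbp5, all lower in the mutant), beside 34.6% of all genes. Ordered from low to high, Igf1 and Igfbp3 ran from both uncut groups, which overlapped, through mutant cut to control cut, each step apart. The order for Igfbp2 was the same, with mutant cut replicate 1 at 5.39 just over the highest uncut value of 5.38. For Igfbp5 the uncut groups did not overlap, with the mutant higher. Its mutant uncut and mutant cut groups overlapped, and control cut stood apart above them. In uncut nerve Igfbp5 was the 1 of 9 members whose genotypes did not overlap, beside 27.1% of all genes. For Igf2, Igf1r and Igfbp6 the uncut and cut nerves stood apart and the genotypes did not, and for Igfbp4 and Igfbp7 neighbouring groups overlapped throughout.

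The genes with the most similar pattern were those with the lowest root mean square difference over the 8 arrays, after each gene was centred on its mean. For Igfbp2 they were Slitrk6 (0.39), Rgs8 (0.43) and Shh (0.46), and for Igfbp3 Mmp17 (0.20), Aebp1 (0.24) and Gap43 (0.25). For Igf1 they were Gpr153 (0.06), Glis3 (0.07) and Plaur (0.08), for Igfbp5 Lclat1, Pdp1 and Slc30a4 (0.12 each), and for Igfbp6 Perp (0.05), Gpc6 (0.08) and Pdlim2 (0.09). For Igf2 they were Camk2n2 (0.09), Mroh1 (0.10) and Mfsd9 (0.10), and for Igf1r Poln, Scap and Dock6 (0.05 each). The nearest to Igfbp4 were Gtf3c2 (0.02), Hoxb2 (0.03) and Rpl38 (0.03), and to Igfbp7 Cyria, Cpne1 and Pfdn6 (0.05 each).

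Of 47 other genes of the pathway, 37 were tested, 5 lay under the filter and 5 were not analysed here. In control nerve 8 of the 37 rose and 5 fell, beside 22.8% and 17.5% of all genes, and in the mutant 6 rose and 5 fell, beside 18.1% and 17.8%. These shares lie close to or under those of all genes and are no result about the pathway as a whole (median log2 difference -0.03 and -0.04, beside 0.05 and 0.00 over all genes). Between genotypes 0 of 37 were called in cut nerve, in uncut nerve and for the interaction (limma), with 2, 0 and 2 at an unadjusted p under 0.05, where 8.61%, 2.66% and 6.04% of all genes stood. Igf2r, which clears IGF-II, rose 2.00-fold in control and 1.81-fold in the mutant. Igfals, the serum subunit that stabilises IGF complexes, fell by 0.71 in control and by 1.36 in the mutant.

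Among adaptors, Grb14, an inhibitor of insulin receptor signalling, read 10.43 and 10.16 in control uncut, 8.75 and 8.25 in control cut, 10.16 and 10.27 in mutant uncut and 8.29 and 8.09 in mutant cut nerve. Cut and uncut arrays did not overlap, and it fell in control (-1.80, limma adjusted p = 2.3e-04) and in the mutant (-2.02, adjusted p = 1.5e-04). Grb2, which couples receptors to Ras, rose by 1.01 and 0.98, while its second probe set gave 0.47 in control and 0.30 in the mutant, the latter not called (limma adjusted p = 0.0742 over probe sets). Grb10, a relative of Grb14, rose by 0.50 and 0.49. Irs1, the docking protein of both receptors, fell by 0.92 in the mutant and was -0.44 in control (limma adjusted p = 0.0538).

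Among the kinase genes, Pik3r1, a regulatory subunit of PI3 kinase, fell by 1.52 in control (limma adjusted p = 1.8e-04) and by 0.85 in the mutant. Of its other probe sets 1 was called in both genotypes (-1.29 and -0.84), and those at -0.67 and -0.86 in control and -0.40 and -0.41 in the mutant were not called. Pik3r3, another such subunit, rose by 1.20 and by 1.01. Akt1, the kinase downstream, rose by 0.68 and 0.49. Eif4ebp1, a brake on translation, rose by 0.70 in control and was 0.19 in the mutant. Foxo4, a transcription factor that Akt holds out of the nucleus, fell by 0.74 and 0.88, and its relative Foxo1 fell by 0.82 in control and was -0.47 in the mutant.

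Of the proteases, Adam12, which can cut binding proteins, rose by 1.29 in control (limma adjusted p = 0.00302) and by 0.84 in the mutant. Pappa, the protease that cuts Igfbp4, was looked at after its values were seen. It read 6.38 and 6.26 in control uncut, 7.89 and 7.08 in control cut, 6.40 and 6.49 in mutant uncut and 6.47 and 6.55 in mutant cut nerve. The control cut arrays lay above the other 6, which spanned 6.26 to 6.55, and Pappa rose by 1.16 in control (limma adjusted p = 0.00579) and was 0.06 in the mutant. In cut nerve it was -0.98 in the mutant against control, which did not pass (limma adjusted p = 0.145). Like Igfbp2, Pappa passed the filter only through the control cut arrays, so a difference was built into its passing.

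**Figure D4:**
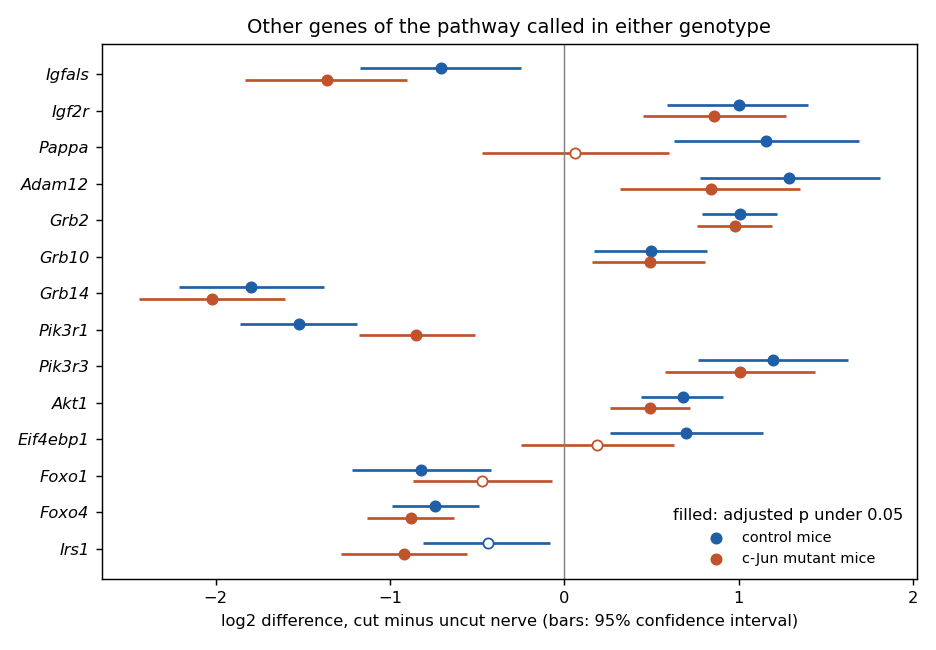
Log2 difference between cut and uncut nerve (horizontal axis) for the other pathway genes called in either genotype, in control and in c-Jun mutant mice, with 95% confidence intervals (limma, 2 arrays a group); filled points passed an adjusted p under 0.05. Grb14 lies lowest in both genotypes (-1.80 and -2.02), and Pappa lies at 1.16 in control and 0.06 in the mutant.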

How the data were processed

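RNA of nerve segments was hybridised to 8 single-channel Affymetrix arrays, 2 in each of 4 groups taken from the sample titles. The deposited values are log2 expression values, 1 for each of 45101 probe sets on each array, made per the submitters' processing notes with RMA and the package affy (no version named in those notes). RMA corrects background, equalises the arrays' distributions and summarises probes, which shrinks changes of dim probe sets and hides a shift that all genes share. Detection calls and scan dates were not used here, and array batches were not tested.

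Probe sets above the array median on at least 2 arrays passed the filter. A gene was represented by the brightest of its passing probe sets, which left 12094 genes of 18194. Symbols came from the platform annotation: 34958 probe sets have 1 symbol, 932 several and 9211 none, and several or none named no gene. With R 4.3.3 and limma 3.58.1 group means were fitted on the 8 arrays jointly (4 residual degrees of freedom), with 5 contrasts and two-sided Benjamini-Hochberg adjustment over all genes. P-values measure the spread between pools. The number of arrays limits the precision. The model was tested on simulated data.

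Members and gene lists were chosen with earlier results of these data known. Named were all members in all comparisons, Jun, up to 4 called genes of the pathway list per comparison by size, and 3 nearest genes per member. Pappa, Stc2, Csn2 and the remaining called pathway genes were named after their values were seen. Alternatives were no filter, the 75th percentile filter, averaging the probe sets of a gene, testing each probe set, median centring, quantile normalisation, array weights, a trended robust variance, the replicate number as a block, using the 4 arrays of a comparison alone, and leaving out each array. A fit that left out the cut arrays with more milk protein RNA (control cut replicate 1 and mutant cut replicate 2) was added after seeing the data.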

Additional observations from a re-analysis of the deposited data

How the results depend on the processing

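Igf1, Igfbp2, Igfbp3, Igfbp5 and Igfbp6 kept their calls after the cut in control, and Igf1 and Igfbp6 in the mutant, under every alternative that was run. The number of members called between genotypes in cut nerve was 1, and it was 2 with no filter, with probe sets averaged, with median centring, with quantile normalisation and with a trended robust variance, 0 with the 75th percentile filter and with only the 4 arrays compared, and 0 to 2 with 1 array left out. At the 75th percentile filter Igfbp2 was not tested. After the cut in the mutant the count was 2 to 5 with 1 array left out (2 without mutant cut replicate 2 or mutant uncut replicate 2), and in control 6 to 7. A fit chosen after seeing the data left out the cut arrays with more milk protein RNA. It kept 1 array in each cut group, and the mutant uncut arrays, with Csn2 at 13.01 and 10.33, stayed in. The Igfbp2 interaction was -3.53 there. Igf2 in control changed by 0.50 after the cut (0.77 in the main fit), and Igf1r in the mutant by -0.56 (-0.54). With the replicate number as a block 3 members were called in cut nerve, Igfbp2 (limma adjusted p = 0.0267), Igfbp3 (0.0164) and Igfbp5 (0.0483). The labels do not say that numbers pair the pools, and deviations of same-numbered arrays correlated at 0.02 to 0.34. Igfbp3 in cut nerve passed in 4 of 19 alternatives and Igfbp5 in 4 of 19, and Igfbp2 in 12 of 18 (limma adjusted p 0.0158 to 0.134), missing with only the 4 arrays compared (0.0861).

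Differences that turned sign were uncalled, and the cause was not tested. Those of Igfbp6 and Igfbp7 in cut nerve were -0.31 and -0.21, and their interactions -0.25 and -0.22. These are not small beside the other members. They turned without control cut replicate 1 and mutant cut replicate 2, the cut arrays with more milk protein RNA. The Igfbp6 interaction also turned without mutant cut replicate 2 alone. After the cut in control, Igfbp4 was -0.05 with quantile normalisation, -0.02 without those cut arrays and -0.03 to 0.06 with 1 array left out. In the mutant, Igfbp4 was -0.02 with the mean of probe sets and -0.01 with quantile normalisation. Without the cut arrays of more milk protein RNA, Igfbp5 was -0.14 and Igfbp7 0.05 in the mutant. With 1 array left out, Igfbp5 ran from -0.14 to 0.26 and Igfbp7 from -0.23 to 0.05 there. In cut nerve, without the cut arrays of more milk protein RNA, Igf2 was 0.06, Igfbp4 0.04, Igfbp6 0.04 and Igfbp7 0.02. Igfbp4 was 0.02 in cut nerve with quantile normalisation. With 1 array left out the ranges there were -0.37 to 0.17 for Igf2, -0.08 to 0.18 for Igf1r and -0.04 to 0.02 for Igfbp4. In uncut nerve Igfbp4 was 0.06 with the mean of probe sets, and with 1 array left out the ranges were -0.04 to 0.17 for Igf1, -0.05 to 0.22 for Igf1r, -0.28 to 0.26 for Igfbp2, -0.43 to 0.13 for Igfbp3, -0.07 to 0.02 for Igfbp4, -0.23 to 0.09 for Igfbp6 and -0.06 to 0.08 for Igfbp7. For the interaction, Igf1r was 0.07 and Igfbp4 -0.25 with the mean of probe sets, and Igfbp4 was -0.01 with median centring. Without the cut arrays of more milk protein RNA, the interaction of Igf1r was 0.08, that of Igfbp6 0.11 and that of Igfbp7 0.01. With 1 array left out the interaction ran from -0.17 to 0.10 for Igf1r, -0.03 to 0.06 for Igfbp4 and -0.55 to 0.06 for Igfbp6.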

Other observations

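Stc2, an inhibitor of the protease Pappa, has 2 probe sets that passed the filter and that differed in size. The dimmer one, chosen after its values were seen, read 6.40 and 6.37 in control uncut, 7.53 and 7.54 in control cut, 6.65 and 6.96 in mutant uncut and 6.20 and 6.62 in mutant cut nerve. Both control cut arrays stood above the other 6. It rose by 1.15 in control (limma adjusted p = 0.00141 over probe sets) and was -0.39 in the mutant. In cut nerve it was -1.12 in the mutant against control (limma adjusted p = 0.0319 over probe sets). The brighter probe set, which represents the gene, was -0.35 there and did not pass (limma adjusted p = 0.617).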
